A study of Homo sapiens with 6 samples.

Results

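The 55 keratin genes of the gene tables, out of 27968 genes listed, were compared between T47D cells given the HOTAIR-N siRNA and T47D cells given a control siRNA. They were chosen by symbol alone, as KRT followed by a number and at most 1 letter from A to C, so that keratin pseudogenes, antisense genes and keratin-associated proteins are not among them. T47D is an estrogen receptor-positive human breast cancer line with a luminal character. The first group was transfected with an siRNA directed at HOTAIR-N, one form of HOTAIR, a long noncoding RNA, and the second with a control siRNA. Each group held 3 libraries from separate transfections of this 1 cell line, harvested 48 hours after lipid transfection and grown in RPMI medium with serum. No second siRNA against HOTAIR is among these samples, so effects of the siRNA's sequence on other RNAs and effects of HOTAIR cannot be told apart.

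Keratins are the intermediate filament proteins of epithelia. A filament is built from pairs of an acidic type I and a basic type II keratin, so each cell needs both types. Simple epithelia, including the luminal cells of the breast, rely on KRT8 and KRT18 with KRT7 and KRT19, basal and myoepithelial cells on KRT5 and KRT14, and injured or activated epidermis adds KRT6, KRT16 and KRT17, while the hair follicle has its own set. The type II genes lie together on chromosome 12 (27 of the 55 members here, with KRT18 as the type I exception) and the other type I genes on chromosome 17 (28 members).

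The libraries summed to between 31777001 and 33362083 expected counts (RSEM's estimate of the reads of a gene) for HOTAIR-N siRNA replicates 2 and 3, 35259407 for replicate 1, and between 35106084 and 36707169 for the control siRNA. HOTAIR had 206, 185 and 196 counts in the HOTAIR-N siRNA libraries, against 577, 540 and 581 in the control siRNA libraries. The whole gene was thus at 34.7% of control (edgeR log2 fold change -1.53 with an SE of 0.07, adjusted p = 2.11e-09 by the quasi-likelihood test). The HOTAIR-N form was not matched to a listed transcript, so its own level is not given. HOTAIR-N siRNA replicate 3 and control siRNA replicate 2 stood apart from the other libraries of their groups, with a chi-square per degree of freedom of 7 to 8.81 against them, where the remaining pairs gave 2.36 and 2.17. Calls on tested keratin genes and transcripts that changed without both libraries are given beside them. Of 9 luminal markers all were tested, and 6 fell, 1 rose and 2 were not called, where 34.8% of all tested genes fell and 36.2% rose. The hormone receptor genes ESR1 and PGR fell to 32.1% and 36.4% of control, GATA3, FOXA1, EPCAM and KRT18 fell, CDH1 rose, and KRT8 and KRT19 were not called. These 9 genes had a summed level, most of it KRT8, KRT18 and KRT19, of 8197 to 9059 TPM (a level per length of transcript) in HOTAIR-N siRNA libraries and 9089 to 10310 TPM in control siRNA libraries. The defining basal keratins were at the edge of detection, with 0 to 1 counts of KRT5 in HOTAIR-N siRNA libraries and 1 in each control siRNA library.

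KRT8, KRT18 and KRT19 remained the most abundant keratins in every library, while several keratins with few reads in control siRNA libraries rose after the HOTAIR-N siRNA. Of the 55 genes, 17 had enough counts to be tested, and 10 of these rose, 2 fell and 5 were not called at an adjusted p under 0.05. Over all 14919 genes tested, 36.2% rose and 34.8% fell, 71.1% in either direction. A rise of at least 2-fold was called in 8 of the 17 keratins, against 8.91% of all genes, and a fall of at least 2-fold in 0 of the 17, against 6.84%. The groups did not overlap for 13 of the 17, 10 higher and 3 lower, where 37.5% of all genes were higher and 35.9% lower without overlap. The median log2 fold change was 0.95 over the 17 and 0.02 over all genes tested. These counts are limited by the filter. Of the 17, 6 (KRT16, KRT17, KRT24, KRT6B, KRT75 and KRT83) had enough counts in every HOTAIR-N siRNA library but not in every control library. KRT17, KRT24 and KRT83 had enough in 0 control siRNA libraries, so they had to be higher with the HOTAIR-N siRNA. KRT75 had enough in 1 control siRNA library and KRT16 and KRT6B in 2, and for these the filter alone did not set the direction. Among the 10 keratins with enough counts in all 6 libraries, KRT7, KRT80, KRT222 and KRT15 rose, KRT18 and KRT23 fell, and KRT8, KRT19, KRT10 and KRT4 were not called. KRT13 passed through the control siRNA libraries and was not called. In these bulk samples, a change in the number of cells that hold a keratin RNA and a change in RNA per cell cannot be told apart.

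**Figure D1:**
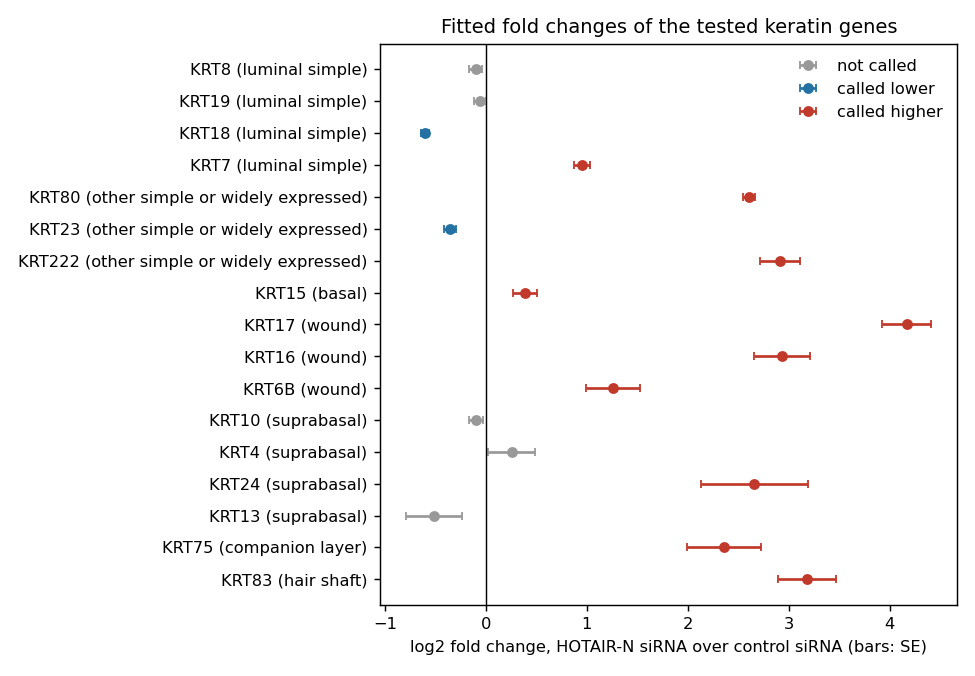
Log2 fold change (HOTAIR-N siRNA over control siRNA) of the 17 tested keratin genes, grouped by class; points are edgeR estimates, bars 1 SE either side, and red and blue points were called higher and lower at an adjusted p under 0.05, with grey points not called. The wound, hair and companion layer keratins lie to the right, up to 4.17 for KRT17, and the luminal keratins between -0.60 and 0.95. The former did not have enough counts for the filter in every control siRNA library.

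The 4 luminal keratins did not move as a block. KRT8, the type II keratin of simple epithelia, was the most abundant keratin. Its level was 4215, 4329 and 3751 TPM in HOTAIR-N siRNA libraries and 4565, 3876 and 4493 TPM in control siRNA libraries. The groups overlapped and the log2 fold change of -0.10 (SE 0.06) was not called (edgeR adjusted p = 0.166). KRT18, its type I partner, was at 1403, 1384 and 1344 TPM in HOTAIR-N siRNA libraries and 2108, 1925 and 2115 TPM in control siRNA libraries. All 3 HOTAIR-N siRNA libraries lay below all 3 of the control siRNA, and KRT18 fell to 65.8% of control (log2 fold change -0.60, SE 0.04, edgeR adjusted p = 6.75e-08). KRT19, a small type I keratin without a tail domain, measured 2411, 2454 and 2184 TPM in HOTAIR-N siRNA libraries and 2551, 2183 and 2465 TPM in control siRNA libraries. These values overlapped too, and its log2 fold change of -0.06 (SE 0.06, edgeR adjusted p = 0.379) changed sign with the scaling, between -0.13 and 0.04 over the alternatives. KRT7, a type II keratin of ducts and glands, was at 107.2, 111.4 and 91.41 TPM in HOTAIR-N siRNA libraries and 55.46, 47.34 and 54.00 TPM in control siRNA libraries. It rose 1.94-fold with no overlap (log2 fold change 0.95, SE 0.08, edgeR adjusted p = 4.8e-07).

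The call on KRT8 and KRT19 moved with control siRNA replicate 2, the lowest control library for both. Without it both were called lower, with log2 fold changes of -0.18 for KRT8 (edgeR adjusted p = 0.00648) and -0.13 for KRT19 (edgeR adjusted p = 0.0274). Without HOTAIR-N siRNA replicate 3 as well they were -0.12 (edgeR adjusted p = 0.000307) and -0.08 (edgeR adjusted p = 0.00954). Without a filter on low counts KRT8 was also called lower (log2 fold change -0.12, edgeR adjusted p = 0.0407). KRT18 and KRT7 kept their calls under every alternative run. KRT8 and KRT18 lie side by side and their annotated exons share 525 bases on opposite strands, 16.3% of the exon bases of KRT18. No source used here states whether strand entered the counting, so reads there could be assigned to either gene. Of the 50-base stretches of KRT8 and KRT18, 32.7% and 31.8% recur in GENCODE v29 transcripts of other genes, mainly pseudogenes, which could take a part of their reads. KRT7 overlaps KRT7-AS on the opposite strand over 282 bases, and KRT7-AS, named after its values were seen, had 86.71, 63.16 and 80.84 counts in HOTAIR-N siRNA libraries and 36.08, 31.03 and 41.17 in control siRNA libraries.

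**Figure D2:**
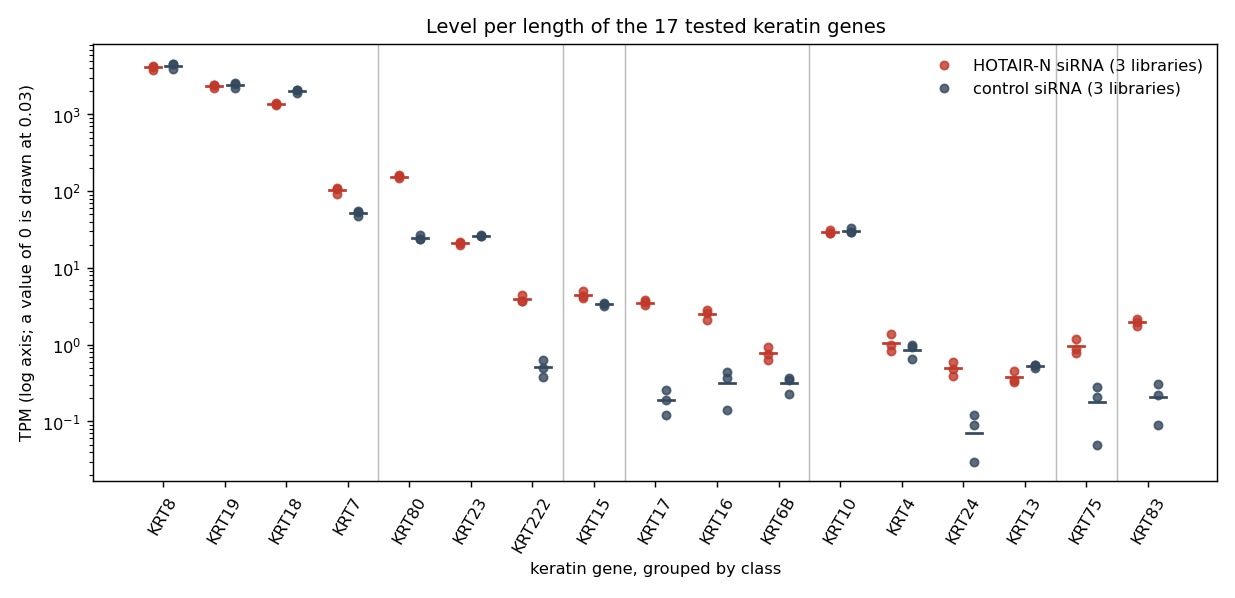
Level in each library (TPM, log axis) of the 17 tested keratin genes, HOTAIR-N siRNA points left and control siRNA points right within each gene, with a bar at each group's mean. KRT8, KRT19 and KRT18 lie between 1344 and 4565 TPM in every library, and KRT80 and KRT7 change places in the order of levels.

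With KRT18 lower and KRT8 not called, the ratio of type II to type I keratin RNA was higher with the HOTAIR-N siRNA. Keratin proteins and filaments were not measured. The ratio of KRT8 to KRT18, both per length, was 3.005, 3.128 and 2.79 in HOTAIR-N siRNA libraries and 2.165, 2.014 and 2.124 in control siRNA libraries. The ratio of all type II to all type I keratins was 1.148 ± 0.0351 in HOTAIR-N siRNA libraries and 0.9721 ± 0.0222 in control siRNA libraries (SD, n = 3 each), and the groups did not overlap. The type I sum was 3794 ± 171 TPM with the HOTAIR-N siRNA and 4512 ± 297 TPM with the control siRNA, and the type II sum 4361 ± 324 TPM with the HOTAIR-N siRNA and 4390 ± 385 TPM with the control siRNA (SD, n = 3 each). All 55 keratins together held 0.8156 ± 0.0494% of all TPM with the HOTAIR-N siRNA and 0.8902 ± 0.0681% with the control siRNA (SD, n = 3 each). No test was run on these sums. The 4 luminal keratins made up 97.21 ± 0.11% of keratin TPM with the HOTAIR-N siRNA and 98.99 ± 0.0883% with the control siRNA (SD, n = 3 each). The share of the other 51 genes was thus 2.791 ± 0.11% with the HOTAIR-N siRNA and 1.008 ± 0.0883% with the control siRNA.

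KRT80 carried most of that difference. This type II keratin is found near desmosomes in differentiating epithelial cells. Its level was 155.6, 160.4 and 147.0 TPM in HOTAIR-N siRNA libraries, against 26.78, 23.67 and 23.88 TPM in control siRNA libraries. The lowest HOTAIR-N siRNA library was far above the highest of the control siRNA, and KRT80 rose 6.10-fold (log2 fold change 2.61, SE 0.06, edgeR adjusted p = 1.82e-11). Its rank by level among the keratins was 4 with the HOTAIR-N siRNA, above KRT7, KRT10 and KRT23, and 7 with the control siRNA, below them. The ratio of KRT80 to KRT7 was 1.5 ± 0.0942 with the HOTAIR-N siRNA and 0.475 ± 0.0297 with the control siRNA (SD, n = 3 each). Within single libraries its rank among all genes was 1004 to 1098 with the HOTAIR-N siRNA and 5524 to 5905 with the control siRNA. Without KRT80 the keratins outside the luminal class summed to 72.94 ± 1.75 TPM with the HOTAIR-N siRNA and 64.55 ± 1.69 TPM with the control siRNA, and with it to 227.3 ± 6.33 TPM with the HOTAIR-N siRNA and 89.33 ± 1.24 TPM with the control siRNA (SD, n = 3 each).

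KRT80 has a pair of RefSeq transcripts in the files, NM_182507 and NM_001081492. NM_182507 had 7011, 6744 and 6210 counts in HOTAIR-N siRNA libraries and 1286, 959 and 780.7 in control siRNA libraries (log2 fold change 2.74, SE 0.18, edgeR adjusted p = 0.000235 over all transcripts). NM_001081492 had 4249, 3661 and 3777 counts in HOTAIR-N siRNA libraries and 629.2, 648 and 913.3 in control siRNA libraries (log2 fold change 2.43, SE 0.15, edgeR adjusted p = 0.000199). Both rose. The deposited share of NM_182507 within the gene was 63.31 ± 1.49% with the HOTAIR-N siRNA and 57.86 ± 10.7% with the control siRNA (SD, n = 3 each), a difference within the spread of the control libraries.

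Of the other keratins with a wide distribution, KRT222 rose and KRT23 fell. KRT222, a type I keratin-like gene at the edge of the chromosome 17 cluster, was at 4.38, 3.72 and 3.67 TPM in HOTAIR-N siRNA libraries and 0.50, 0.38 and 0.64 TPM in control siRNA libraries. The groups were far apart, with a 7.54-fold rise (log2 fold change 2.92, SE 0.20, edgeR adjusted p = 6.36e-08). Of the 50-base stretches of its transcript, 57.8% are also found in GENCODE v29 transcripts of 1 other gene, AC073508.2 on the same strand, so its reads may be shared. KRT23, a type I keratin of glandular epithelia, was at 20.20, 21.16 and 21.99 TPM in HOTAIR-N siRNA libraries and 25.73, 26.45 and 27.05 TPM in control siRNA libraries. It fell to 78% of control with no overlap (log2 fold change -0.36, SE 0.06, edgeR adjusted p = 0.000123). KRT20, a marker of gut epithelium, was not tested, at 3, 1 and 2 counts with the HOTAIR-N siRNA and 1, 0 and 0 with the control siRNA.

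The tested wound keratins rose, on few counts in the control siRNA libraries. KRT17 had enough counts for the filter in 0 control siRNA libraries, so its direction was set by the filter. KRT16 and KRT6B had enough in 2 control siRNA libraries, so the filter alone did not set theirs. KRT17, a type I keratin induced in injured epidermis and present in basal cells and skin appendages, had 90, 93 and 92 counts in HOTAIR-N siRNA libraries and 7, 3 and 5 in control siRNA libraries. The HOTAIR-N siRNA libraries lay within 3 counts of each other and the groups were far apart, with an 18-fold rise (log2 fold change 4.17, SE 0.24, edgeR adjusted p = 1.65e-08). KRT16, the wound partner of KRT6, had 78, 76.96 and 59.98 counts in HOTAIR-N siRNA libraries and 13, 4 and 11 in control siRNA libraries, a 7.63-fold rise (log2 fold change 2.93, SE 0.28, edgeR adjusted p = 1.4e-06). KRT6B rose 2.39-fold (log2 fold change 1.26, SE 0.26, edgeR adjusted p = 0.00101), with 31.42, 34.82 and 24.55 counts in HOTAIR-N siRNA libraries and 14.98, 9 and 14 in control siRNA libraries. KRT6A, KRT6B and KRT6C are near-identical and 47.1% of the 50-base stretches of KRT6B recur in other genes, so the 3 were also summed. They had 37, 38 and 27 counts in HOTAIR-N siRNA libraries and 17, 10 and 14 in control siRNA libraries. KRT16 and KRT17 share 22% and 17.4% of their stretches with other genes, and their listed pseudogenes had at most 2 counts in any library.

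In level these genes stayed small beside the luminal keratins. The 5 wound keratins summed to 6.93 ± 0.649 TPM with the HOTAIR-N siRNA and 0.8433 ± 0.306 TPM with the control siRNA (SD, n = 3 each), or 0.08492% of keratin TPM with the HOTAIR-N siRNA and 0.009334% with the control siRNA.

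Of the basal keratins, only KRT15 reached the test. KRT15, a type I keratin of basal cells and of hair follicle stem cells, was at 4.10, 5.06 and 4.32 TPM in HOTAIR-N siRNA libraries and 3.38, 3.46 and 3.23 TPM in control siRNA libraries. It rose 1.31-fold with no overlap (log2 fold change 0.39, SE 0.12, edgeR adjusted p = 0.0113), and the call was lost in 4 of the alternatives, with DESeq2 (adjusted p = 0.0805), without HOTAIR-N siRNA replicate 2 (edgeR adjusted p = 0.0565), against a 1.2-fold change (edgeR adjusted p = 0.112) and at a threshold of 0.01. KRT14, the type I keratin of basal cells, had 2, 3.04 and 1.02 counts with the HOTAIR-N siRNA and 0 in all 3 control siRNA libraries. KRT5, its type II partner, had 1, 1 and 0 counts with the HOTAIR-N siRNA and 1, 1 and 1 with the control siRNA.

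Markers of myoepithelial or basal cells moved in part with these genes. Of 7 markers 4 were tested, and ACTA2, smooth muscle actin, rose, OXTR, the oxytocin receptor, fell, and TP63, the basal transcription factor p63, and MYH11 were not called. Their summed level was 85.65 to 94.56 TPM with the HOTAIR-N siRNA and 21.65 to 24.06 TPM with the control siRNA, nearly all of it ACTA2 (84.74 to 93.58 TPM with the HOTAIR-N siRNA and 20.92 to 23.3 TPM with the control siRNA). TP63 was at 0.37 to 0.45 TPM with the HOTAIR-N siRNA and 0.28 to 0.35 TPM with the control siRNA. KRT5 did not exceed 0.03 TPM in any library. Of the 5 keratinocyte markers 2 were tested, IVL rose and KRT10 was not called, and LOR was listed at 0 in every library. Fibroblast markers summed to 7.7 to 8.95 TPM with the HOTAIR-N siRNA and 8.85 to 10.16 TPM with the control siRNA. Leukocyte markers summed to 3.71 to 4.76 TPM with the HOTAIR-N siRNA and 2.86 to 3.13 TPM with the control siRNA, and endothelial markers to at most 0.05 TPM in any library. The part of these marker genes in the rise of the wound keratins was not tested.

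Keratins of stratified differentiation changed little apart from KRT24. KRT10, a type I keratin of the suprabasal epidermis, was at 28.58, 28.14 and 31.23 TPM with the HOTAIR-N siRNA and 29.58, 33.27 and 29.35 TPM with the control siRNA and was not called (log2 fold change -0.10, SE 0.07, edgeR adjusted p = 0.211). KRT4 and KRT13, the pair of wet mucosal epithelia, were not called either. The log2 fold change was 0.25 for KRT4 (SE 0.23, edgeR adjusted p = 0.348), at 0.98, 1.36 and 0.83 TPM with the HOTAIR-N siRNA and 0.94, 0.66 and 0.98 TPM with the control siRNA. KRT13 had 10, 12 and 10 counts with the HOTAIR-N siRNA and 16, 14 and 16 with the control siRNA, which did not overlap, but its log2 fold change of -0.51 (SE 0.28) missed the threshold (edgeR adjusted p = 0.147). KRT24, a type I keratin of late keratinocyte differentiation, had 13, 18 and 15 counts with the HOTAIR-N siRNA and 3, 0 and 4 with the control siRNA. It rose 6.32-fold (log2 fold change 2.66, SE 0.53, edgeR adjusted p = 0.000667), with a large SE on few counts, and had passed the filter through the HOTAIR-N siRNA libraries alone. Over the alternatives its log2 fold change lay between 2.12 and 3.25, the latter without control siRNA replicate 3. The 13 keratins of this class summed to 31.53 ± 1.34 TPM with the HOTAIR-N siRNA and 32.43 ± 1.93 TPM with the control siRNA (SD, n = 3 each), most of it KRT10.

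Hair follicle keratins were low in every library, and the 2 that could be tested, KRT83 and KRT75, rose. KRT83 had enough counts for the filter in 0 control siRNA libraries, so its direction was set by the filter. KRT75 had enough in 1 control siRNA library, so the filter alone did not set its direction. KRT83, a type II keratin of the hair cortex, had 58, 58.85 and 67 counts in HOTAIR-N siRNA libraries and 3, 7 and 10 in control siRNA libraries. The groups were far apart, with a 9.09-fold rise (log2 fold change 3.18, SE 0.29, edgeR adjusted p = 8.74e-07). KRT75, a type II keratin of the companion layer of the follicle, had 45, 27 and 32 counts in HOTAIR-N siRNA libraries and 8, 10 and 2 in control siRNA libraries. It rose 5.13-fold (log2 fold change 2.36, SE 0.37, edgeR adjusted p = 0.000108). KRT75 shares 0.044% of its 50-base stretches with other genes, against 12.8% for KRT83, whose close relatives KRT81 and KRT86 lie beside it. KRT81, KRT83 and KRT86 together had 67, 69.85 and 74 counts with the HOTAIR-N siRNA and 13, 13 and 20 with the control siRNA.

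Below the filter were 38 keratins, 7 of them with at least 10 counts over the 6 libraries, of which 6 are hair keratins. KRT32, of the hair cuticle, had 9, 14 and 14 counts with the HOTAIR-N siRNA and 2, 2 and 2 with the control siRNA. KRT33A, of the cortex, had 12, 14 and 7 counts with the HOTAIR-N siRNA and 3, 0 and 2 with the control siRNA. KRT40, of the cuticle, had 9, 12 and 12 counts with the HOTAIR-N siRNA and 3, 2 and 0 with the control siRNA. In these 3 genes every HOTAIR-N siRNA library lay above every control siRNA library. KRT81 had 4.55, 3.76 and 4.71 counts with the HOTAIR-N siRNA and 0 in the control siRNA libraries, so that its summed count was at least 4.66-fold higher, against a floor of 3 counts over the control group and scaled to library size. KRT86, with which KRT81 shares sequence, had 4.45, 7.24 and 2.29 counts with the HOTAIR-N siRNA and 10, 6 and 10 with the control siRNA, and the groups overlapped. KRT37, of fine body hair, had 5, 2 and 5 counts with the HOTAIR-N siRNA and 4, 2 and 1 with the control siRNA. KRT2, of the upper epidermis, had 7, 6 and 4 counts with the HOTAIR-N siRNA and 3, 5 and 3 with the control siRNA. DESeq2, with its own filter, called KRT32 (adjusted p = 0.00547), KRT33A (0.0097), KRT40 (0.00899) and KRT81 (0.00992) higher. So did edgeR without a filter, with adjusted p of 0.000216 for KRT32, 0.000849 for KRT33A, 0.000679 for KRT40 and 0.00167 for KRT81, and it called KRT14 higher as well (adjusted p = 0.0456).

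The other 31 untested keratins had at most 9 counts over the 6 libraries, and 5 of them had 0 in all. They summed to 69.27 counts with the HOTAIR-N siRNA and 38.02 with the control siRNA, with more in the HOTAIR-N siRNA group for 18 genes, fewer for 5 and equal counts for 8. Over all 38 untested keratins, 24 had more counts with the HOTAIR-N siRNA, 6 had fewer and 8 had equal counts, 5 of these at 0 in every library. Among all genes below the filter with a count, which leaves out genes at 0 in every library, 54.5% had more and 35.9% had fewer. Of the 7 with at least 10 counts, 4 (KRT32, KRT33A, KRT40 and KRT81) were higher with the HOTAIR-N siRNA without overlap and 0 were lower, where 21.0% of all such genes below the filter were higher and 5.91% lower. The place of KRT81 among them depends on how reads were split between it and KRT86. Among tested genes with an average log2 CPM (counts scaled to library size) under 2, 40.0% rose and 22.5% rose by at least 2-fold. Of the 10 keratins in that range 8 rose, 7 of them by at least 2-fold. Of these 10 keratins, 6 did not have enough counts for the filter in every control siRNA library. In level, the hair shaft keratins summed to 3.743 ± 0.368 TPM with the HOTAIR-N siRNA and 0.7667 ± 0.0681 TPM with the control siRNA, and those of the inner root sheath and companion layer to 1.05 ± 0.3 TPM with the HOTAIR-N siRNA and 0.2067 ± 0.0751 TPM with the control siRNA (SD, n = 3 each).

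**Figure D3:**
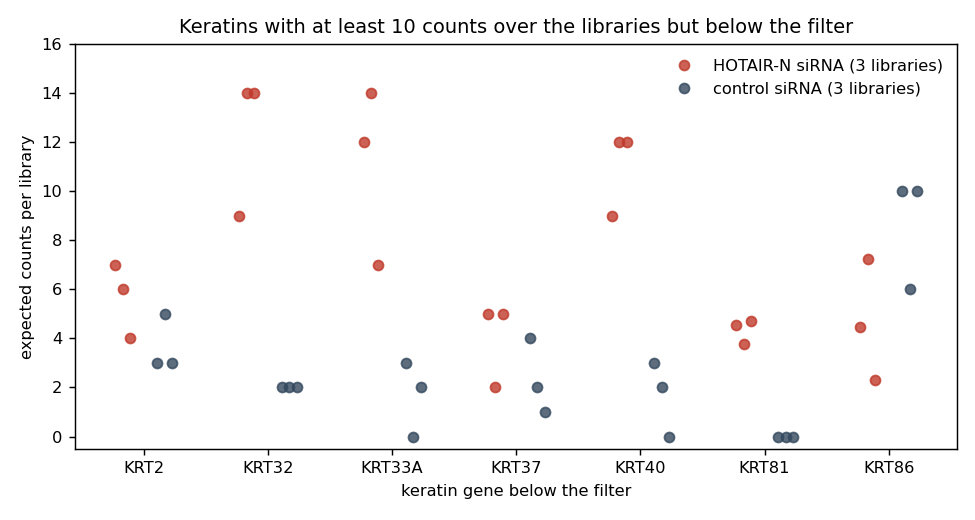
Expected counts in each library (1 point per library, no error bars) of the 7 keratins below the filter with at least 10 counts over the 6 libraries, HOTAIR-N siRNA points left and control siRNA points right within each gene. The groups are apart for KRT32, KRT33A, KRT40 and KRT81 and overlap for KRT2, KRT37 and KRT86.

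Start-site sequence was at hand in RefSeq (GRCh38.p14) for 34 of the keratin genes, 5 of them tested, and for 38 start sites in all. Shown are the 300 bases around the start of 2 genes that rose, KRT75 and KRT24, and of 1 that was not called, KRT10, from 250 bases before the start to 50 from it, each on the strand of its gene, at chr12:52434322-52434621 (KRT75), chr17:40703703-40704002 (KRT24) and chr17:40822565-40822864 (KRT10), all on the minus strand. Capitals mark matches, on either strand, to any of 5 motifs searched.
KRT75: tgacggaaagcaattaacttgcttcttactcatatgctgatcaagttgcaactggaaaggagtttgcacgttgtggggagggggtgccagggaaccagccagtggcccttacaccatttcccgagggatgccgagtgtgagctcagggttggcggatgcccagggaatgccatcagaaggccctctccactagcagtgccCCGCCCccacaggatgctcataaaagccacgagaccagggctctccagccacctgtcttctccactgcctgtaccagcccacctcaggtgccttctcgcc
KRT24: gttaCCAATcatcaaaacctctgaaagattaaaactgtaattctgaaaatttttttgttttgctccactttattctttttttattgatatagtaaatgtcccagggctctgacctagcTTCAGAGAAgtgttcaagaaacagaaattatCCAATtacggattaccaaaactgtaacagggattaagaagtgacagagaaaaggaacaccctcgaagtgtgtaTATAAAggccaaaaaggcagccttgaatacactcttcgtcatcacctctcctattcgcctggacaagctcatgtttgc
KRT10: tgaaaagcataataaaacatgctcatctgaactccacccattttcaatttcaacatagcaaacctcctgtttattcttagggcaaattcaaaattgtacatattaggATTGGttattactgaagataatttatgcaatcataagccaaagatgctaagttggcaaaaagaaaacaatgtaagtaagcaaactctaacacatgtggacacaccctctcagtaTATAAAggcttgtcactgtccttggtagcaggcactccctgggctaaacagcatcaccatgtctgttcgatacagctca

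The first motif was the TATA box, spelled TATAAA. KRT24 has one that starts 28 bases before the start, as KRT10 does 29 bases before it, and KRT75 has none. It was found at 21 of the 38 keratin start sites (55.3%), against 11.5% of all 35116 start sites. The second was the CCAAT box, of which KRT24 has a pair and KRT10 has 1 on the other strand, and which 47.4% of the keratin start sites and 34.6% of all held. The GC box, spelled GGGCGG, occurs once near KRT75 on the other strand, and was found at 15.8% of the keratin start sites and 45.0% of all. The AP-1 site, spelled TGANTCA with N for any base, was found at 0 of the 38 keratin start sites and 7.71% of all. The STAT site, spelled TTCNNNGAA, occurs once near KRT24, and was found at 5.26% of the keratin start sites and 7.66% of all. No overlapping matches were merged, and these matches of letters say nothing of binding.

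In RefSeq order the cluster runs from KRT80 and KRT7 past KRT86, KRT81, KRT83, KRT75 and KRT6B to KRT4, KRT8 and KRT18. The 5 that rose, KRT80, KRT7, KRT83, KRT75 and KRT6B, all come before the 3 other tested keratins, KRT4, KRT8 and KRT18, of which KRT18 fell. KRT75 and KRT6B lie in the middle of the cluster, and every keratin between KRT6B and KRT4 was below the filter. KRT83, KRT75 and KRT6B had enough counts for it in every HOTAIR-N siRNA library but not in every control siRNA library. Other genes around KRT80 and KRT7, named after their values were seen, rose too, where 36.2% of all tested genes rose. They were KRT7-AS (log2 fold change 1.10), the olfactory receptor pseudogene OR7E47P (2.17) and the nuclear receptor gene NR4A1 (2.02), while ATG101, between the last 2, had a log2 fold change of -0.01 that was not called. OR7E47P had 30, 23 and 29 counts with the HOTAIR-N siRNA and 6, 7.02 and 5 with the control siRNA. It had passed the filter through the HOTAIR-N siRNA libraries alone. Beyond KRT18, the translation factor gene EIF4B was at -0.00 and the tensin gene TNS2 at -0.08, neither called, while SPRYD3 rose by 0.56. On chromosome 17, KRT222 and KRT24 at 1 end and KRT16 and KRT17 at the other rose, KRT15 rose between them and KRT23 fell. HOTAIR lies on chromosome 12 as well. The keratin-associated protein genes, which encode the matrix of the hair shaft, numbered 93, of which 76 had 0 counts in every library. The 2 tested, KRTAP3-1 and KRTAP5-1, entered the test through the HOTAIR-N siRNA libraries alone, so that their direction was set by the filter. KRTAP3-1 had 12, 11 and 15 counts with the HOTAIR-N siRNA and 0 in the control siRNA libraries, at least 13.6-fold higher against the same floor.

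**Figure D4:**
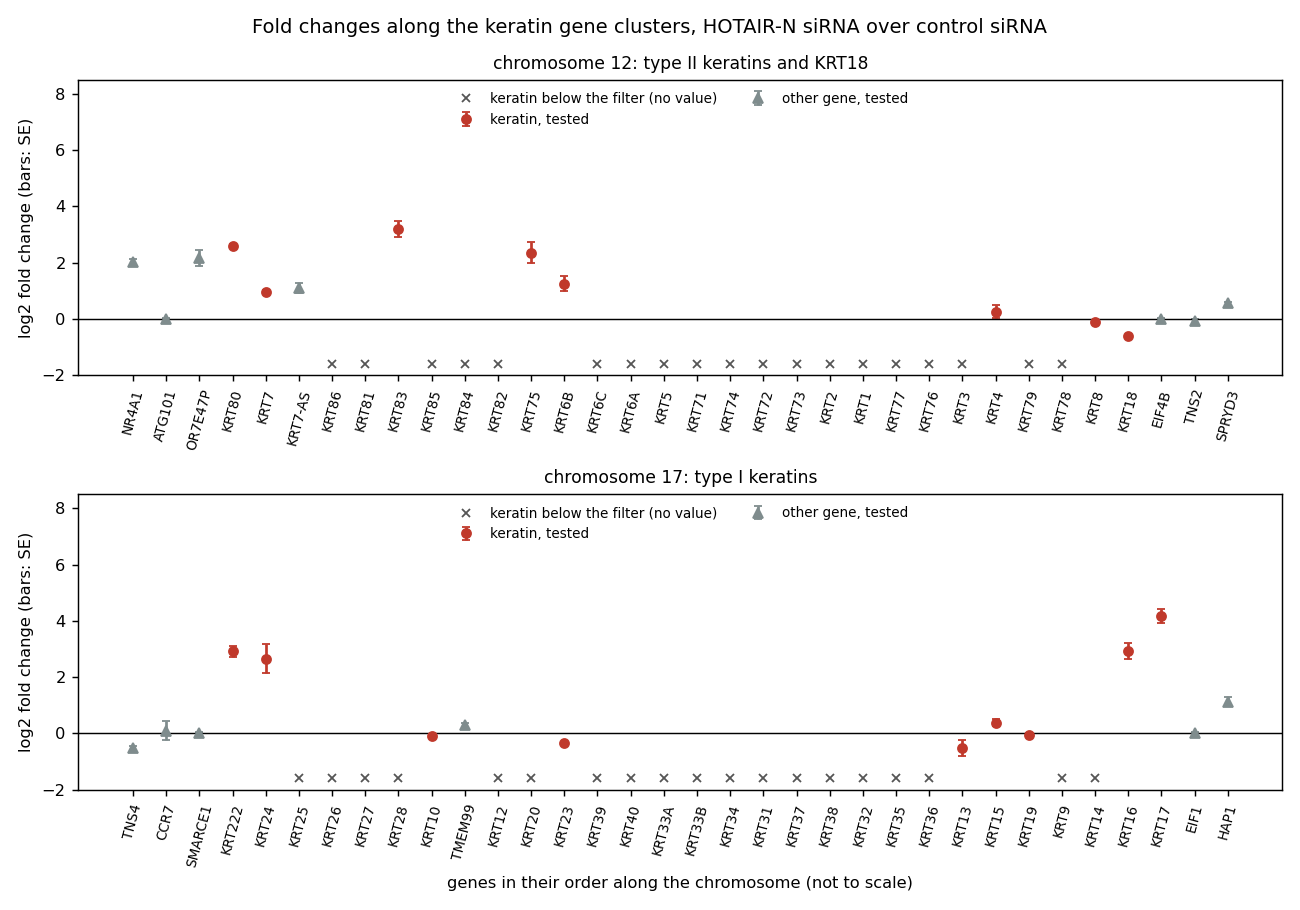
Log2 fold change (HOTAIR-N siRNA over control siRNA) of tested keratins (circles) and other tested genes (triangles) in RefSeq order along the keratin clusters of chromosomes 12 and 17, with bars of 1 SE; crosses are keratins below the filter and keratin-associated protein genes are left out. On chromosome 12 the 5 keratins that rose come before KRT4, KRT8 and KRT18, with untested keratins between.

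At the level of transcripts, 66 belong to keratin genes and 21 were tested, of which 8 rose and 2 fell. Over all 32285 tested transcripts, 15.4% rose and 16.6% fell. The 8 include both transcripts of KRT80. They also include those of KRT16, KRT17, KRT75 and KRT83, genes without enough counts for the filter in every control siRNA library, so the 8 are not independent of the filter. Only 8 keratin genes have more than 1 transcript. The fall of KRT18 was that of NM_000224, its main transcript (log2 fold change -0.62, SE 0.04, edgeR adjusted p = 0.000256), while NM_199187 was not called (log2 fold change 0.14, SE 0.36, edgeR adjusted p = 0.818). NM_199187 had a deposited share of 6.26, 3.37 and 2.79% of the gene with the HOTAIR-N siRNA and 2.03, 2.44 and 3.05% with the control siRNA, which overlap. The main transcript of KRT23, NM_015515, fell (log2 fold change -0.37, SE 0.06, edgeR adjusted p = 0.00646). Of KRT8, 99.92% was assigned to NM_002273 on average with the HOTAIR-N siRNA and 99.95% with the control siRNA. Without HOTAIR-N siRNA replicate 3 and control siRNA replicate 2, NM_002273 was called lower (log2 fold change -0.10, edgeR adjusted p = 0.0373), and the transcripts NM_002282 of KRT83 (edgeR adjusted p = 0.0654) and NM_004693 of KRT75 (edgeR adjusted p = 0.113) lost their calls, which left 6 keratin transcripts higher and 3 lower.

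Of 23 genes of desmosomes and of the plakins that anchor filaments 18 were tested, and 7 rose, 5 fell and 6 were not called (median log2 fold change -0.01), where 36.2% of all tested genes rose and 34.8% fell. DST, which links filaments to hemidesmosomes, rose (log2 fold change 1.24, SE 0.04, edgeR adjusted p = 1.48e-10). PKP4, a plakophilin of cell junctions, fell (log2 fold change -1.20, SE 0.05, edgeR adjusted p = 4.77e-10), as did the desmosome gene PERP (-1.45, SE 0.07, edgeR adjusted p = 2.06e-09) and the hemidesmosome integrin gene ITGA6 (-0.85, SE 0.06, edgeR adjusted p = 6.13e-08). PERP was at 16.73 to 19.19 TPM with the HOTAIR-N siRNA and 44.69 to 51.21 TPM with the control siRNA, with no overlap. The count of 7 rises in this list was between 3 and 4 when HOTAIR-N siRNA replicate 1 or 2 or control siRNA replicate 2 or 3 was left out.

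Of 18 other intermediate filament genes 11 were tested, with 4 higher, 4 lower and 3 not called (median log2 fold change -0.04), near the 36.2% and 34.8% of all tested genes. The lamin genes LMNB2 and LMNB1, of the nuclear envelope, fell (log2 fold changes -1.25, SE 0.06, edgeR adjusted p = 2.04e-09, and -0.91, SE 0.05, edgeR adjusted p = 8.1e-09). VIM, vimentin of mesenchymal cells, rose but was low, at 1.19, 1.16 and 1.59 TPM with the HOTAIR-N siRNA and 0.15, 0.16 and 0.1 TPM with the control siRNA. With 147 counts over the HOTAIR-N siRNA group and 16 over the control group, VIM had passed the filter through the HOTAIR-N siRNA libraries alone. BFSP2, a filament gene of the eye lens, fell (log2 fold change -1.51, SE 0.16, edgeR adjusted p = 3.14e-06).

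Of 26 genes of the cornified envelope and epidermal differentiation 10 were tested, with 8 higher, 0 lower and 2 not called (median log2 fold change 1.10). Of all tested genes, 36.2% were higher and 34.8% lower. The other 16 members were below the filter, and the list was chosen with earlier results of these data known. The calcium-binding genes S100A8 and S100A9, which injured epidermis induces together with the wound keratins, were already expressed. S100A8 was at 339.9, 329.4 and 294.3 TPM with the HOTAIR-N siRNA and 82.94, 87.36 and 78.05 TPM with the control siRNA (log2 fold change 1.93, SE 0.07, edgeR adjusted p = 5.26e-10). S100A9 was at 597.5, 611.4 and 534.8 TPM with the HOTAIR-N siRNA and 245, 213.9 and 213.6 TPM with the control siRNA (log2 fold change 1.35, SE 0.07, edgeR adjusted p = 6.05e-09). IVL, the envelope precursor involucrin, and TGM1, the enzyme that cross-links it, rose with log2 fold changes of 1.15 (SE 0.10, edgeR adjusted p = 6.27e-07) and 1.61 (SE 0.14, edgeR adjusted p = 6.85e-07). Neither gene overlapped between the groups, with TGM1 at 2.67 to 3.45 TPM with the HOTAIR-N siRNA and 1 to 1.01 TPM with the control siRNA.

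Of 29 regulators of keratin genes all were tested, with 15 higher, 11 lower and 3 not called (median log2 fold change 0.23), against 36.2% higher and 34.8% lower of all tested genes. The grainyhead factors, which control epithelial differentiation, went opposite ways. GRHL2 was at 69.22, 68.27 and 69.9 TPM with the HOTAIR-N siRNA and 122.3, 123.2 and 120.7 TPM with the control siRNA (log2 fold change -0.85, SE 0.04, edgeR adjusted p = 1.41e-09). GRHL3 was at 12.57, 13.69 and 12.87 TPM with the HOTAIR-N siRNA and 3.89, 2.8 and 3.02 TPM with the control siRNA (log2 fold change 1.98, SE 0.10, edgeR adjusted p = 4.1e-09). SOX9 and MSX2, developmental factors of glands and appendages, fell (log2 fold changes -1.61, SE 0.07, edgeR adjusted p = 1.56e-09, and -1.15, SE 0.05, edgeR adjusted p = 1.88e-09). TP63, the factor that drives KRT5 and KRT14 in basal cells, was not called (log2 fold change 0.31, SE 0.20, edgeR adjusted p = 0.214).

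Of 19 genes for proteins that bind or modify keratins all were tested, with 5 higher, 8 lower and 6 not called (median log2 fold change -0.12), against 36.2% higher and 34.8% lower of all tested genes. The 4 with the smallest p all fell, and the product of each is known to bind KRT8 or KRT18. They were the kinase gene PRKCE (log2 fold change -2.19, SE 0.08, edgeR adjusted p = 2.7e-10), the 14-3-3 gene YWHAZ (389.3 to 434.2 TPM with the HOTAIR-N siRNA and 745.4 to 863.7 TPM with the control siRNA, edgeR adjusted p = 8.7e-09), and the chaperone genes DNAJB6 (-0.65, SE 0.05, edgeR adjusted p = 1.95e-07) and HSPA8 (-0.34, SE 0.03, edgeR adjusted p = 1.35e-06). PRKCE was at 2.18, 1.82 and 2.12 TPM with the HOTAIR-N siRNA and 9.15, 9.17 and 9.18 TPM with the control siRNA.

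**Figure D5:**
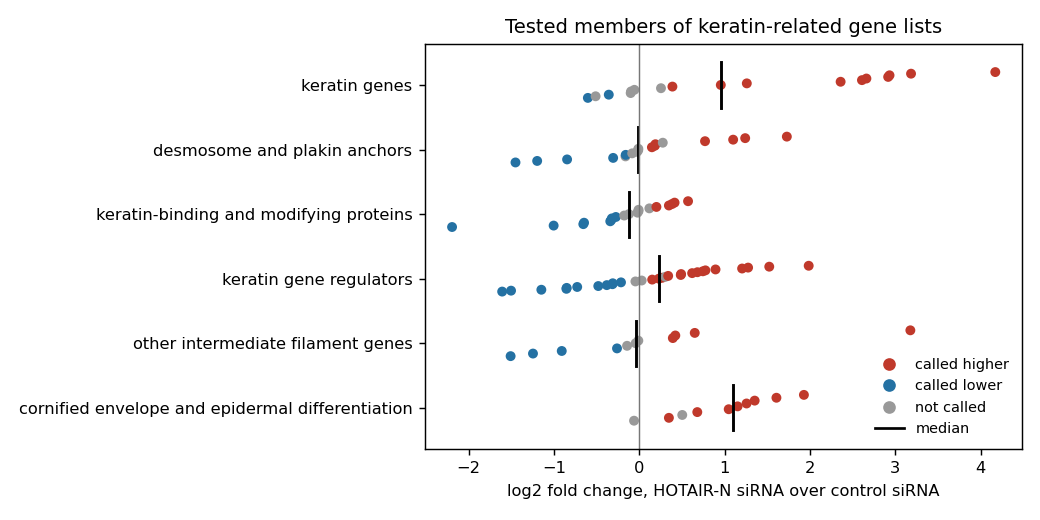
Log2 fold change (HOTAIR-N siRNA over control siRNA) of the tested keratins and of the tested members of the lists of genes that work with them, 1 point per gene, red where called higher, blue where called lower and grey where not called, with a line at each median. Medians of the lists run from -0.12 for keratin-binding proteins to 1.10 for the cornified envelope, and the envelope list has 0 members called lower.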

How the data were processed

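RNA of 6 T47D libraries, 3 per siRNA, was sequenced after removal of ribosomal RNA with a stranded total RNA kit, per the labels' protocols. The submitters' processing notes list STAR 2.6.0c, RSEM 1.3.0 and hg19, with no settings. Per the file headers, the deposited tables hold expected counts per gene and transcript, which need not be whole. TPM, a level per length, and the share of each transcript as a percent of its gene are deposited beside them. Expected counts were rounded, filtered with edgeR's filterByExpr (minimum count 10, minimum total 15), scaled by TMM and tested with edgeR 4.0.16's quasi-likelihood test in R 4.3.3 without covariates, over all 14919 genes or 32285 transcripts that passed, with Benjamini-Hochberg adjustment and a threshold of 0.05. At these depths 1 CPM stood for 31.8 to 36.7 counts. The SE is the log2 fold change over the square root of its F statistic. Shared 50-base stretches were counted in GENCODE v29 transcripts. Floors of 3 counts cover counting error only.

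The keratins, their classes and the lists were chosen with earlier results of these data known, and the lists are not independent evidence of a direction. Named genes are HOTAIR, the tested keratins, untested keratins with at least 10 counts, and from each list the 4 tested genes of smallest p. KRT5, KRT14, KRT20, KRT7-AS and genes around the clusters were named after their values were seen, and marker genes come from a list chosen likewise. Replicate numbers in the labels were not taken as pairs. The deviations of same-numbered libraries from their group means correlated at 0.13, -0.38 and -0.29 across genes, which cannot exclude paired preparation. The highest correlation between the groups was 0.49, for HOTAIR-N siRNA replicate 3 and control siRNA replicate 2. All libraries were counted separately. The steps were tested on simulated counts.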

Additional observations from a re-analysis of the deposited data

How the results depend on the processing

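Of 285 alternative values of the tested keratin genes' fold changes, 276 kept their side of the threshold, 4 lost the call (all KRT15), 5 gained one (KRT8 and KRT19) and 0 of the called ones reversed. Values that were not called could change sign among the 276, as did those of KRT19 and KRT10 (log2 fold changes of KRT10 between -0.15 and 0.0011). DESeq2 size factors, library totals, upper-quartile scaling and limma-voom 3.58.1 each gave 10 keratins higher and 2 lower, although library totals alone moved the median log2 fold change of all genes to 0.12. DESeq2 1.42.0 called 13 higher and 2 lower of 27, no filter 15 and 3 of 50, and a filter of 1 CPM in 3 libraries 7 and 2 of 13. Without single replicates, 9 to 13 were higher and 2 to 4 lower, and 4 were lower without control siRNA replicate 2. Without that library and HOTAIR-N siRNA replicate 3, a setting chosen after seeing the data, 11 were higher and 4 lower. Against a 1.2-fold change 6876 genes of all were called. With the replicate block, which treats same-numbered libraries as pairs, 10 keratin genes were higher and 2 lower, and over transcripts 1 keratin transcript was lower and 6219 transcripts were called in all. Against a 1.2-fold change 1 keratin transcript was lower, and at a threshold of 0.01 6209 transcripts were called. The call on KRT75's transcript NM_004693 (edgeR adjusted p = 0.0464) was lost in 12 of 16 alternatives.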
